A study of Mus musculus with 7 samples.

Results

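The BCL2 family decides whether a cell stays alive when its mitochondria receive a death signal, and 10 of its genes were examined here in sorted Pax7-GFP cells of mouse muscle after chronic hypercapnia. The members were taken by symbol from the deposited expression table: Bcl2, Bcl2l1, Mcl1, Bax, Bak1, Bcl2l11, Bbc3, Pmaip1, Bad and Bid, 10 of 23930 genes, and all 10 had a row. There were 3 libraries from normocapnia (NC1, NC2 and NC3) and 4 from hypercapnia (HC1, HC2, HC3 and HC4). All mice were Pax7-GFP reporters of the C57BL/6 background, in which a tamoxifen-dependent Cre at the Pax7 locus turns on GFP, so that both groups carried Cre and reporter and both were given tamoxifen. They entered their condition at 12 weeks of age and were collected at 16 weeks, after 4 weeks of room air (NC) or of elevated CO2 (HC, 10% by the methods). By the methods, hind limb muscles were injured with cardiotoxin 3 days before the cells were sorted, whereas the title of the deposited table names 40 hours, and the sample labels mention neither. GFP stays on in the progeny of a Pax7-positive cell, and the labels do not say how many mice went into a library. The genotype labels also end in a different strain number for each library, while the growth notes describe littermates of 1 strain.

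In the intrinsic pathway of apoptosis, guardian proteins such as BCL2, BCL-XL and MCL1 hold the effectors BAX and BAK in check at the outer mitochondrial membrane. BH3-only proteins, among them BIM, PUMA, NOXA, BAD and BID, sense stress or loss of growth factors, occupy the guardians or engage the effectors directly, and so release cytochrome c and start the caspases. Much of this control works through protein turnover, phosphorylation and cleavage, so mRNA levels describe only the supply of each protein. In muscle, some myoblasts are known to die by apoptosis while others differentiate.

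Expression was given as RPM, reads scaled to a common library total, from an amplicon panel that reads 1 short stretch of each gene, so a value compares a gene between libraries and does not separate isoforms. Library totals ran from 14527445 to 23388710 reads, and 3 reads, used here as the floor, corresponded to 0.128 to 0.207 RPM. No marker of satellite cells was at 0 in any library, and Pax7 ranged from 4.34 RPM (NC3) to 268 RPM (NC1). The sum of 10 satellite cell markers ranged from 604 to 3463 RPM in NC and from 779 to 1552 RPM in HC. Markers of other cells were also present, and the sum of 10 macrophage markers ranged from 12033 to 34607 RPM in NC and from 19665 to 24518 RPM in HC, with 1 of them (Adgre1) called higher in HC. Of 8 neutrophil markers 1 (Mmp8, log2 fold change 1.25) and of 13 genes induced by tissue dissociation 1 (Atf3, 0.80) were also called higher in HC. In bulk RNA such as this, fewer cells of a type and less RNA per cell cannot be told apart. NC3 stood apart, with 16.6% of its reads in its 10 leading genes against 8.36% to 12.1% elsewhere, and NC2 held the highest sum of the dissociation genes (19598 RPM against 11388 to 13070 RPM elsewhere). The part of cell composition and of dissociation in the results below was not tested, and fits without single libraries are given with the genes.

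None of the 10 members passed the test for a difference between NC and HC. A gene was called when its limma p, unadjusted, was under 0.05 and its fold change above 1.5 in either direction, on log2(RPM + 1), and 0 of 10 members met this, 0 had an unadjusted p under 0.05, and 0 were called by edgeR or DESeq2 on whole reads. Over the whole table, limma called 615 of 23930 genes (2.57%), 343 higher (1.43%) and 272 lower (1.14%) in HC. No gene of the table passed 0.05 after adjustment by limma and edgeR, DESeq2 left 29, and 1114 genes (4.66%) had an unadjusted limma p under 0.05. In edgeR 802 genes were called (6.03% of those tested), 294 higher and 508 lower, and in DESeq2 1304 (6.25%), 519 higher and 785 lower. The limma count was 1990 without NC1, 1205 without NC2, 385 without HC1 and 376 without HC2. Among the members, 4 had a higher and 6 a lower mean in HC, with a median log2 fold change of -0.06 against 0.16 for the genes averaging 1 RPM or more. That general shift was 0.04 after median-of-ratios scaling and -0.01 after quantile normalization. NC and HC values overlapped in all 10 members (0 of 10 apart), and the groups were apart in 4.83% of all genes and in 7.72% of genes at 1 RPM or more. With shares this low, 0 of 10 does not set the members apart from other genes. Adjusted p-values of the members ran from 0.915 to 1, and the intervals below show how large a change the 7 libraries could still hide.

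The count models moved the size of several differences without a call. In DESeq2 the log2 fold change was -0.66 for Mcl1, 0.0048 for Bcl2l1, -0.44 for Bax, -0.54 for Bak1, -0.22 for Bcl2l11, -0.26 for Pmaip1, 0.48 for Bbc3 and 0.51 for Bad, each over 1.5 times away from its limma value given below. The values of Bcl2 (-0.72) and Bid (0.54) moved less. In edgeR with a filter the guardians and effectors moved the same way, to -0.63 for Mcl1, 0.042 for Bcl2l1, -0.39 for Bax and -0.49 for Bak1.

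**Figure D1:**
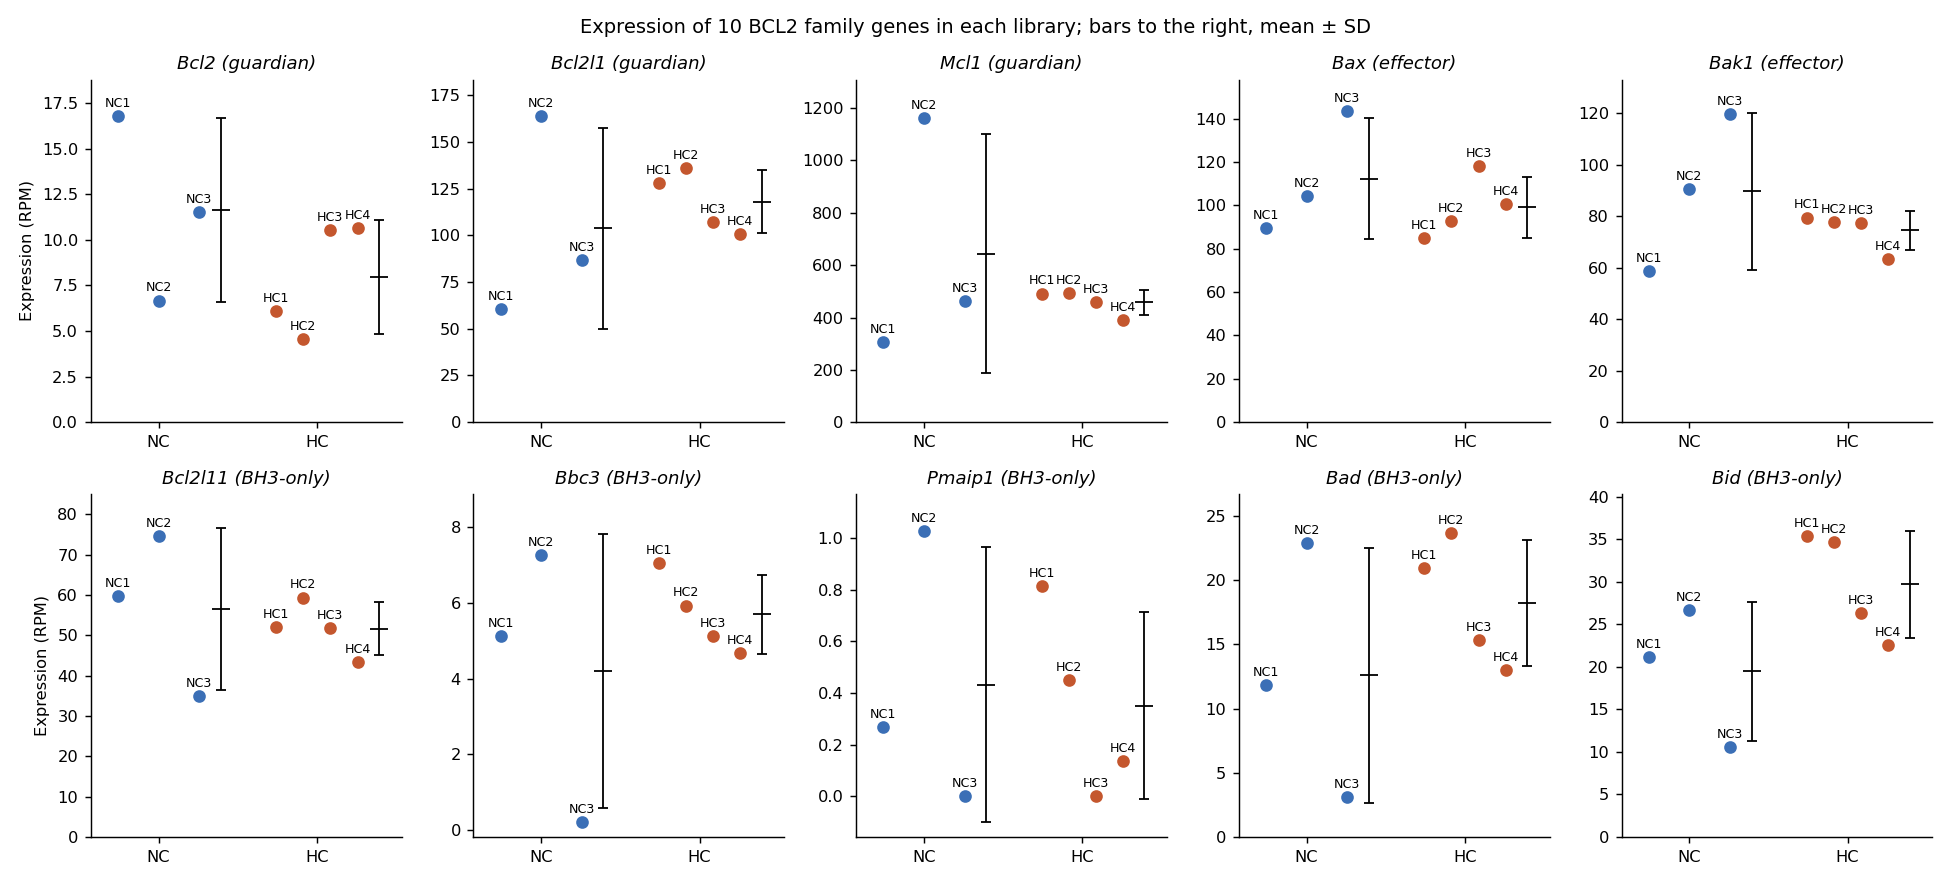
RPM of the 10 family genes in each library, with NC1 to NC3 in blue, HC1 to HC4 in orange, and the mean and SD of each group as a bar at its right (n = 3 and 4). Each panel has its own axis, and in every panel the NC and HC points overlap, with Mcl1 spread from 305 to 1163 RPM in NC and from 390.0 to 493 RPM in HC.

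Mcl1, a guardian with a very short-lived protein, was measured at 305, 1163 and 462 RPM in NC1, NC2 and NC3. It was measured at 492, 493, 459 and 390.0 RPM in HC1 to HC4. NC2 was thus far above every other library, NC1 was below all of them, and NC3 fell among the HC values. The group means were 643 ± 457 RPM (SD, n = 3) and 458 ± 48.2 RPM (SD, n = 4), with a log2 fold change of -0.26 (SE 0.46, 95% interval -1.42 to 0.89, limma p = 0.593, exact permutation p = 0.686). Without NC2 the difference turned to 0.28, and without NC1 it was -0.68. NC2 was also the library with the highest sum of dissociation genes, as given above.

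Bcl2l1 encodes BCL-XL, a guardian that binds both effectors. It stood at 60.3, 164 and 86.7 RPM in NC1 to NC3 and at 128, 136, 107 and 100.5 RPM in HC1 to HC4. All 4 HC libraries lay between NC2, the highest, and NC3 and NC1, the lowest. Means were 104 ± 53.8 RPM (SD, n = 3) in NC and 118 ± 16.8 RPM (SD, n = 4) in HC, with a log2 fold change of 0.30 (SE 0.35, 95% interval -0.58 to 1.17, limma p = 0.436, exact permutation p = 0.543). Leaving out NC2 placed both remaining NC libraries below all HC libraries and gave the only call of a member in the 16 alternatives, with a log2 fold change of 0.68 and an unadjusted p of 0.0256 in limma (adjusted p = 0.547, against 0.547 to 1 over its 16 alternatives). In that fit 5.04% of all genes were called. Leaving out NC1 gave -0.028.

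Bcl2, the founding guardian of the family, had the most negative log2 fold change of the 10. Its levels were 16.8, 6.67 and 11.5 RPM in NC and 6.08, 4.57, 10.6 and 10.6 RPM in HC. NC1 and NC3 were the highest of the 7 libraries, while NC2 lay among the HC values. Means were 11.6 ± 5.05 RPM (SD, n = 3) and 7.96 ± 3.10 RPM (SD, n = 4), and the log2 fold change was -0.48 (SE 0.41, 95% interval -1.51 to 0.54, limma p = 0.284, exact permutation p = 0.314). It ranged from -0.80 without NC2 to -0.20 without NC1, was -0.28 without HC2, and was below 0 in all 16 alternatives. From highest to lowest, Bcl2 ran NC1, NC3, HC4, HC3, NC2, HC1, HC2, and Bcl2l1 ran NC2, HC2, HC1, HC3, HC4, NC3, NC1. Within NC, and within HC, the order of the libraries for one guardian was thus the exact reverse of that for the other.

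The effectors Bax and Bak1, whose products form the pore in the outer mitochondrial membrane, each had a slightly lower mean in HC, well inside the spread. Bax was at 89.7, 104 and 143 RPM in NC and at 85.1, 92.8, 118 and 100.6 RPM in HC. NC3 was highest and the other NC libraries lay within the HC range. Means were 112 ± 27.7 RPM (SD, n = 3) and 99.1 ± 14.04 RPM (SD, n = 4), with a log2 fold change of -0.16 (SE 0.19, 95% interval -0.64 to 0.32, limma p = 0.437, exact permutation p = 0.514), the narrowest interval of the 10 members. Bak1 was at 58.7, 90.6 and 119.6 RPM in NC and at 79.5, 77.9, 77.2 and 63.4 RPM in HC. Here NC2 and NC3 were above and NC1 below every HC library. The means were 89.7 ± 30.5 RPM (SD, n = 3) and 74.5 ± 7.48 RPM (SD, n = 4), and the log2 fold change was -0.21 (SE 0.25, 95% interval -0.84 to 0.41, limma p = 0.432, exact permutation p = 0.457). Without NC3 the log2 fold changes were near 0, at 0.026 for Bax and 0.023 for Bak1, and Bax was at -0.31 without NC1, -0.093 without HC1 and -0.25 without HC3. Bak1 was at -0.14 without HC4, and without NC1 it was at -0.48 with an unadjusted p of 0.0314 in limma (adjusted p = 0.379, against 0.379 to 1 over its alternatives).

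**Figure D2:**
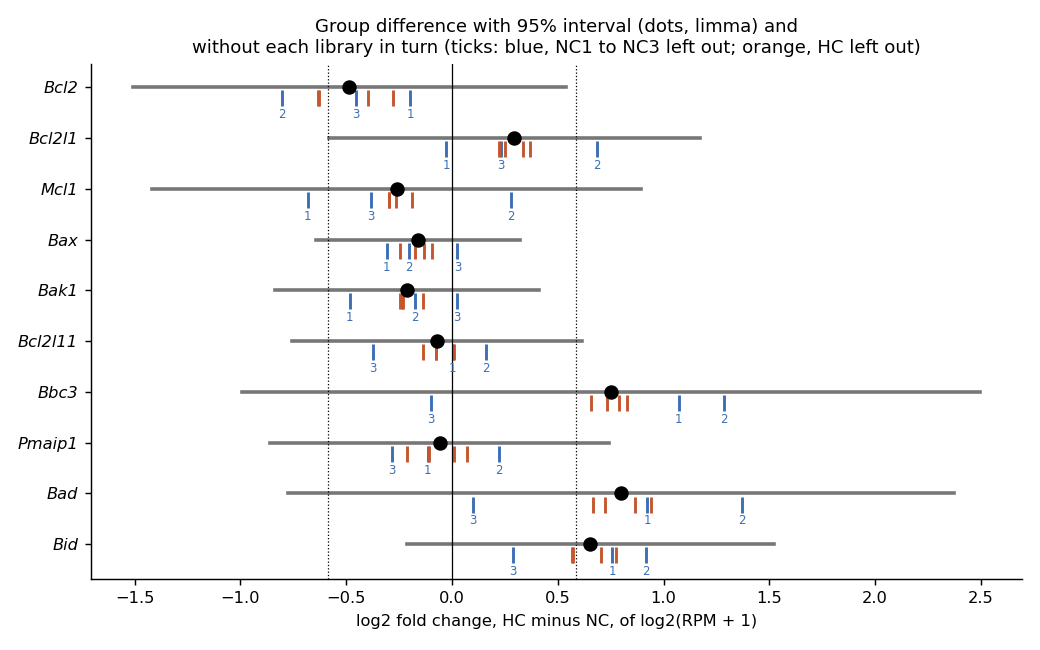
Log2 fold change of each member, HC minus NC on log2(RPM + 1) (dots), its 95% interval from limma (grey lines) and its value without each library in turn (ticks, blue where an NC library with the printed number was left out, orange where an HC library was). Dotted lines mark a 1.5-fold change, every interval crosses 0, and the tick farthest from the dot is blue in every row, as for Mcl1, which is at 0.28 without NC2 and -0.68 without NC1.

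Among the BH3-only genes, Bid, Bad and Bbc3 had higher means in HC, within the spread of the libraries. Bid links death receptors to mitochondria once caspase 8 has cut its protein. It was at 21.2, 26.7 and 10.5 RPM in NC and at 35.4, 34.7, 26.3 and 22.5 RPM in HC. NC1 and NC3 were below every HC library, and NC2 lay between HC2 and HC3. Means were 19.5 ± 8.21 RPM (SD, n = 3) and 29.7 ± 6.31 RPM (SD, n = 4), with a log2 fold change of 0.65 (SE 0.35, 95% interval -0.21 to 1.52, limma p = 0.113, exact permutation p = 0.143), the smallest p of the 10. As a fold of RPM + 1, the interval reached from 0.862 to 2.87. Without NC3 the log2 fold change was 0.29 and without NC2 it was 0.92.

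Bad, whose protein is held inactive by phosphorylation while growth factors are present, was at 11.8, 22.9 and 3.10 RPM in NC and at 20.9, 23.7, 15.4 and 13.0 RPM in HC. NC2 lay among the HC libraries, and NC1 and NC3 lay below them. Means were 12.6 ± 9.93 RPM (SD, n = 3) and 18.2 ± 4.91 RPM (SD, n = 4), with a log2 fold change of 0.80 (SE 0.63, 95% interval -0.78 to 2.37, limma p = 0.256, exact permutation p = 0.257). It was 0.10 without NC3 and 1.37 without NC2.

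Bcl2l11 encodes BIM, which can engage every guardian and both effectors. It was at 59.8, 74.7 and 34.97 RPM in NC and at 52.0, 59.3, 51.7 and 43.3 RPM in HC. NC1 and NC2 were above and NC3 below every HC library, and the means were 56.5 ± 20.1 RPM (SD, n = 3) and 51.6 ± 6.55 RPM (SD, n = 4), with a log2 fold change of -0.07 (SE 0.27, 95% interval -0.75 to 0.61, limma p = 0.806, exact permutation p = 0.771). Without NC3 it was -0.38, without HC2 -0.14, without NC2 0.16, without HC4 0.0090 and without NC1 0.0034.

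Bbc3 and Pmaip1 encode PUMA and NOXA, BH3-only proteins induced by p53 and by other stress signals. Bbc3 was at 5.13, 7.27 and 0.207 RPM in NC and at 7.06, 5.93, 5.12 and 4.67 RPM in HC. The NC3 value rested on 3 reads, with an exact Poisson 95% interval of 0.0426 to 0.603 RPM that covers counting error only. The other 6 libraries lay between 4.67 and 7.27 RPM. Means were 4.20 ± 3.62 RPM (SD, n = 3) and 5.70 ± 1.05 RPM (SD, n = 4), and the log2 fold change of 0.75 (SE 0.70, 95% interval -0.99 to 2.496, limma p = 0.326, exact permutation p = 0.457) became -0.10 without NC3 and 1.29 without NC2. It was 1.33 with a pseudocount of 0.1 RPM and 0.30 with 5 RPM. Pmaip1 was hardly detected, with 6, 24 and 0 reads in NC1 to NC3 and 19, 9, 0 and 2 reads in HC1 to HC4. Its values ran from 0 to 1.03 RPM, and a count of 0 allows up to 0.207 RPM in NC3 and up to 0.187 RPM in HC3. It was the only member with a mean under 1 RPM, and its log2 fold change was -0.06 (SE 0.32, 95% interval -0.86 to 0.74, limma p = 0.861, exact permutation p = 0.886), so that no difference between NC and HC was detected. Its sign turned under 5 of 14 alternatives, without NC2 (0.22), without HC3 (0.073), without HC4 (0.012), under the replicate block (0.012) and after quantile normalization (0.0041). With its sign kept, it was -0.11 without NC1, -0.29 without NC3, -0.21 without HC1 and -0.11 without HC2.

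The promoters of Bid, Bad and Bcl2 are shown. Bid and Bad shared their lowest library (NC3) and their highest HC libraries (HC1 and HC2), as did Bcl2l11 and Bbc3. Bcl2 was lowest in HC1 and HC2, and Bax too was lower in HC1 and HC2 than in HC3 and HC4. Each window shown is the 250 bases before the RefSeq start in GRCm38.p6, written 5′ to 3′ on the strand of the gene. Capitals mark the GC box, GGGCGG on either strand, the element bound by SP1-like factors. Bid lies at chr6:120916825-120917074 on the minus strand, Bad at chr19:6941611-6941860 on the plus strand and Bcl2 at chr1:106714291-106714540 on the minus strand.
Bid: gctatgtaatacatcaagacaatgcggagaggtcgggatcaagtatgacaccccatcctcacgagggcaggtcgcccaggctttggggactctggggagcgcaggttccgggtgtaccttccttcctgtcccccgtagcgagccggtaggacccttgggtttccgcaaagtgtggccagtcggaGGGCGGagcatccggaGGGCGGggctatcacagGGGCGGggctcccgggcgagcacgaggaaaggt
Bad: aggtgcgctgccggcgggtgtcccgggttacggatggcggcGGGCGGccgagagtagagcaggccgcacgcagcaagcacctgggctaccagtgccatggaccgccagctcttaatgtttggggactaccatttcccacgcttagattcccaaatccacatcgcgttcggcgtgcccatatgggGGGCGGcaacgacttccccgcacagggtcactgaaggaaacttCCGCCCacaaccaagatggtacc
Bcl2: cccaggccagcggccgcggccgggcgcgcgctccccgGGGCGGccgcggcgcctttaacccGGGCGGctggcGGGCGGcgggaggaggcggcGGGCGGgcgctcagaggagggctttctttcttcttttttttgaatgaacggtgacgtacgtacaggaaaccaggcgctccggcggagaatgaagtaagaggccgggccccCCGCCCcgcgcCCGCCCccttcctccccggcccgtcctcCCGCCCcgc

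The window of Bid held 3 GC boxes, that of Bad 3 and that of Bcl2 7, while 32.7% of the 32851 promoter windows of the same length in the RefSeq table held at least 1. GC content was 63.6%, 62.8% and 74.8% for Bid, Bad and Bcl2, against a median of 52.4% over all windows. Other motifs were also searched on both strands, and none of the 3 windows matched an E-box (CACGTG, 6.02% of all windows), an E2F site (TTTCGCGC, 0.256%), a FOXO site (GTAAACA, 3.17%), the p53 half-site (7.13%) or the NF-kB site (5.93%). A CCAAT box (CCAAT, 33.8%) was also missing from all 3, though a second start of Bad, at chr19:6942312-6942561, had 1 CCAAT box and no GC box. Of the other members, 1 window of Bcl2l11 and 1 of Bbc3 had 1 FOXO site each, another window of Bbc3 had 2 overlapping NF-kB sites, and yet another of its windows had 1 E-box, and 1 window of Bcl2l1 had 1 NF-kB and 1 E2F site. Bax had 1 p53 half-site and 1 E-box, and Bak1 matched none of the 7 motifs. GC boxes numbered 5, 1 and 7 in the windows of Bbc3, 3 and 2 in those of Bcl2l11, 2 in Bax and 1 in Mcl1, but none in the windows of Bcl2l1. CCAAT boxes were found in both windows of Bcl2l11 (1 and 2) and in 1 window of Bbc3. In total 9 of 10 members, all but Pmaip1, were matched to 15 windows. A match describes letters in a window and is no evidence of binding.

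The members varied more among NC than among HC libraries. The SD of log2(RPM + 1) was larger in NC in 10 of 10 members, and in the 9 members averaging 1 RPM or more its median was 0.657 in NC and 0.205 in HC. The same direction held for 81.1% of all genes at 1 RPM or more, with medians of 0.682 and 0.291. As a ratio of highest to lowest library, Mcl1 spanned 3.81 in NC and 1.26 in HC, Bcl2l1 2.72 and 1.35, Bak1 2.04 and 1.25, and Bad 7.40 and 1.82. The ratios were nearer each other for Bcl2, with 2.51 and 2.32, and for Bax, with 1.598 and 1.39.

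Each NC library departed from HC in its own way. NC1 was below the HC range for Bcl2l1, Mcl1, Bak1, Bad and Bid and above it for Bcl2 and Bcl2l11, while 18.2% of all genes at 1 RPM or more were below that range in NC1 and 41.3% above it. NC2 was above the HC range for Bcl2l1, Mcl1, Bcl2l11, Bak1, Bbc3 and Pmaip1 and below it for no member, while it was below the HC range for 33.3% of all genes at 1 RPM or more and above it for 24.6%. NC3 was below for Bcl2l1, Bcl2l11, Bbc3, Bad and Bid and above for Bcl2, Bax and Bak1. Of all genes at 1 RPM or more, 55.5% were below the HC range in NC3 and 20.2% above it, and 49.0% had their lowest value of the 7 libraries there. The marker sums moved with these libraries. The satellite cell sum was 3463, 1000 and 604 RPM in NC1, NC2 and NC3, the macrophage sum was 12033, 22965 and 34607 RPM, and the endothelial sum was 226, 101 and 89.4 RPM. The part of cell composition in the NC spread of the members was not tested.

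**Figure D3:**
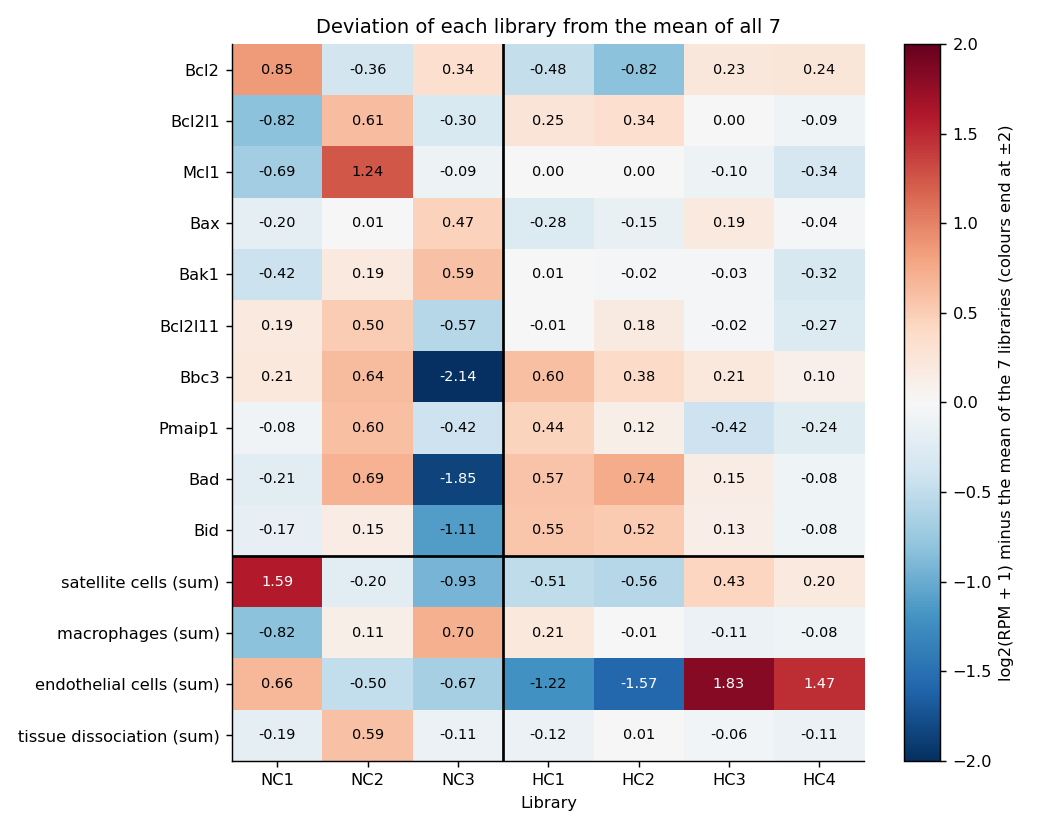
Log2(RPM + 1) of each member and of 4 summed marker lists in each library, minus the mean of the 7 libraries (color and printed value; color ends at ±2). Mcl1 reaches 1.24 in NC2, Bbc3 (-2.14), Bad (-1.85) and Bid (-1.11) are lowest in NC3, and the largest deviation of a member in HC is Bcl2 in HC2 (-0.82).

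Because guardians and effectors act against each other, 5 ratios between members were taken within each library as differences of log2(RPM + 1). They are given as values with no test, and since each gene is read by its own amplicon, only their differences between libraries can be read. The ratio of Mcl1 to Bcl2l1 was 2.32, 2.82 and 2.40 in NC and 1.94, 1.85, 2.09 and 1.95 in HC. All 3 NC libraries were above all 4 HC libraries, with means of 2.51 ± 0.27 (SD, n = 3) and 1.95 ± 0.10 (SD, n = 4), a difference (HC minus NC) of -0.56. It was the only one of the 5 ratios with the groups apart. The same was true of 2.46% of the ratios of Mcl1 to every other gene at 1 RPM or more and of 3.34% of those of Bcl2l1.

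The ratio of Bcl2 to Bax was -2.35, -3.78 and -3.53 in NC and -3.60, -4.07, -3.36 and -3.13 in HC, with NC1 above the rest. Bcl2l1 to Bax was -0.56, 0.65 and -0.72 in NC and 0.58, 0.55, -0.14 and -0.0019 in HC, with NC1 and NC3 below every HC library and NC2 above. Mcl1 to Bak1 was 2.36, 3.67 and 1.94 in NC and stayed between 2.55 and 2.65 in the 4 HC libraries. The HC libraries thus varied little for this pair, and the difference of the means was -0.05. Bcl2l11 to Mcl1 was -2.33, -3.94 and -3.69 in NC and lay between -3.22 and -3.03 in HC. The HC libraries fell inside the NC span in both of these ratios.

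**Figure D4:**
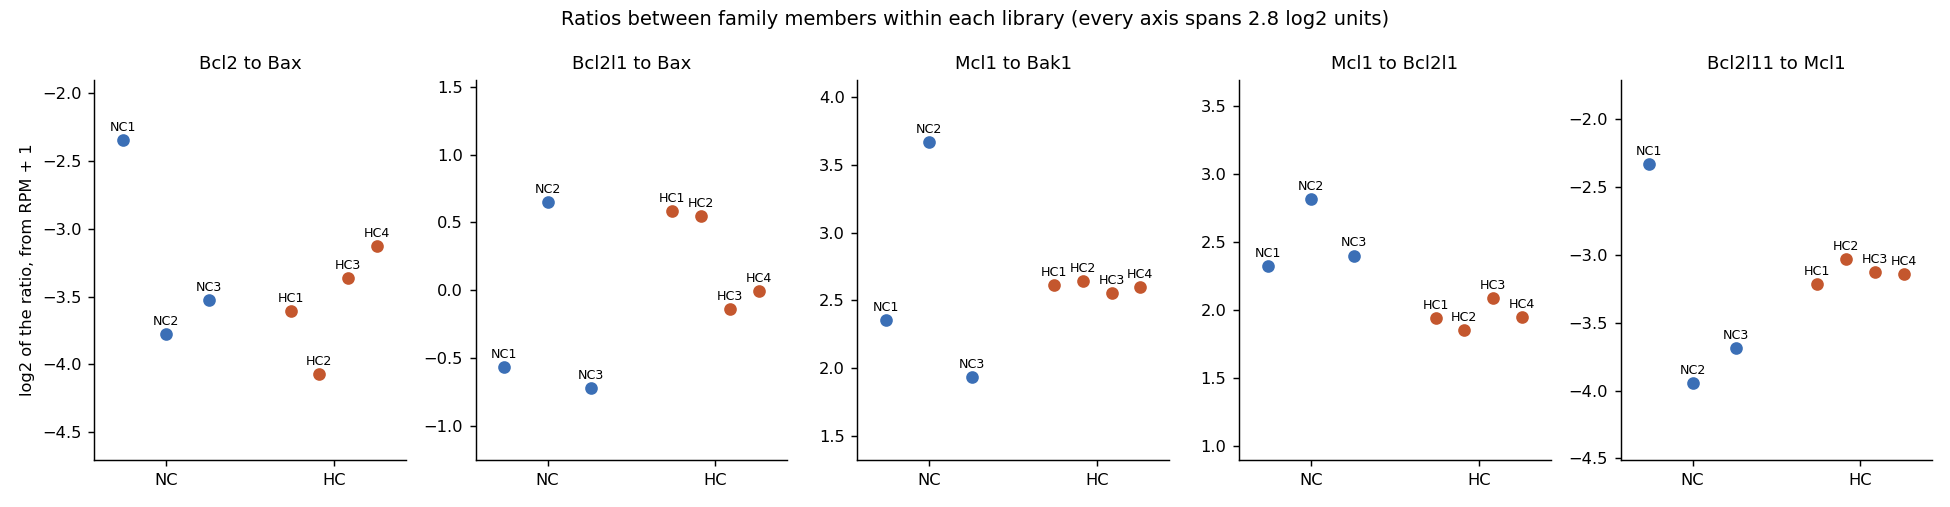
Log2 ratios between pairs of members in each library, from RPM + 1, for NC (blue) and HC (orange); every panel spans the same number of log2 units. NC and HC are apart only for Mcl1 to Bcl2l1, at 2.32 to 2.82 against 1.85 to 2.09, and the HC points of Mcl1 to Bak1 lie between 2.55 and 2.65.

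The genes that act around the family were counted in 6 lists with 87 genes, of which 74 had a row (Bcl2l2, Bcl2a1a to Bcl2a1d, Hrk, Bcl2l15, Bnip3l, Cycs, Fadd, Vdac3, Nfkb1 and Ywhaz were not analysed here). Of the 74, 43 had a higher and 31 a lower mean in HC, 2 were called (2.70%, against 2.57% of all genes), 4 had an unadjusted p under 0.05, and 0 passed after adjustment in limma, edgeR or DESeq2. Their median log2 fold change was 0.09. The called genes were Parp1 and Birc3. The groups were apart in 4 of the 74 (5.41%), against 4.83% of all genes and 7.72% of genes at 1 RPM or more. The count of calls was 12 (16.2%, against 8.32% of all genes) without NC1, 5 (6.76% against 5.04%) without NC2 and 3 (4.05% against 2.57%) without NC3. It was 0 without HC1 or HC2 (1.61% and 1.57% of all genes) and 1 without HC3 or HC4 (2.39% and 1.99% of all genes).

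Among the apoptosome and caspase genes 12 of 14 had a higher mean in HC, as had 62.1% of all genes at 1 RPM or more, with a median log2 fold change of 0.22, and limma called 1. This was Parp1, a DNA repair enzyme cut by caspases, at 129, 83.6 and 60.2 RPM in NC and at 152, 169.8, 156 and 119.7 RPM in HC. NC1 lay above HC4, so the groups overlapped, with a log2 fold change of 0.77 (SE 0.28, limma p = 0.0361, adjusted p = 0.915, exact permutation p = 0.0571). The call was lost under the replicate block (0.87) and without NC2 (0.74), NC3 (0.51), HC1 (0.75), HC2 (0.70) or HC3 (0.74). Htra2, a mitochondrial protease that antagonizes caspase inhibitors, was at 0.95 (exact permutation p = 0.0857). It was called by edgeR with a filter (0.77), by DESeq2 (0.73), and by limma after median-of-ratios scaling (0.81) and without NC1 (1.44), but was at 0.38 without NC3. Aifm1, a mitochondrial flavoprotein, was at 0.40 (exact permutation p = 0.143), at 0.60 without NC1, where it was called, and at 0.26 without NC2. The median of all genes at 1 RPM or more was 0.16, given above.

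Of 10 caspase inhibitors 5 had a higher and 5 a lower mean in HC, and limma called 1. Birc3, a ubiquitin ligase of the IAP family, was at 44.8, 76.5 and 75.1 RPM in NC and at 45.9, 35.3, 47.6 and 36.8 RPM in HC. NC2 and NC3 were above every HC library, while NC1 was among them, and the log2 fold change was -0.62 (SE 0.23, limma p = 0.0401, adjusted p = 0.915, exact permutation p = 0.0857). The call was kept without NC1 and HC3, with a pseudocount of 0.1 RPM, in edgeR (-0.86 with and -0.83 without a filter) and in DESeq2 (-0.90). The call was lost without NC2 (-0.49), NC3 (-0.50), HC1 (-0.67), HC2 (-0.55) or HC4 (-0.57), and also under 5 other alternatives. These were a pseudocount of 5 RPM (-0.58), only genes averaging 1 RPM or more (-0.62), median-of-ratios scaling (-0.76), quantile normalization (-0.63) and the replicate block (-0.57). Its paralog Birc2 was at -0.41 (exact permutation p = 0.114), and Naip1 was at 0.138 to 0.937 RPM (log2 fold change -0.33, -0.19 without NC1 and -0.57 without NC3).

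Regulators of family transcription split 7 higher and 9 lower, with 0 called by limma and 2 of 16 with the groups apart. Creb1, an activator of Bcl2 and Mcl1 transcription, was at 40.4, 44.4 and 35.5 RPM in NC and at 32.3, 29.4, 29.8 and 27.2 RPM in HC. Every NC library was above every HC library, with a log2 fold change of -0.42 (SE 0.09, limma p = 0.00466, adjusted p = 0.729, exact permutation p = 0.0286, the smallest it can give), which is short of 1.5-fold. DESeq2 called it (-0.59), while edgeR did not (-0.55 with and -0.53 without a filter). With only genes averaging 1 RPM or more, the unadjusted limma p of Creb1 was above the limit for a call. It was under that limit in every other limma alternative. E2f1, a cell cycle factor that can also induce BH3-only genes, was at 36.2, 27.9 and 9.78 RPM in NC and at 46.5, 59.4, 49.0 and 38.9 RPM in HC, all HC above all NC (log2 fold change 1.11, SE 0.46, limma p = 0.0537, exact permutation p = 0.0286). Foxo1, a forkhead factor of the family that induces Bcl2l11 and Bbc3, was at 42.7, 20.9 and 73.9 RPM in NC and at 10.4, 13.1, 25.5 and 22.5 RPM in HC (log2 fold change -1.22, SE 0.52, limma p = 0.0619, exact permutation p = 0.143), with NC2 among the HC libraries. Both genes were called under other settings. E2f1 was called by edgeR (1.005 with a filter) and DESeq2 (0.97), and by limma with a pseudocount of 5 RPM (0.96), with only genes averaging 1 RPM or more (1.11), after median-of-ratios scaling (0.98), after quantile normalization (0.92) and without NC1 (1.47), but was at 0.58 without NC3. Foxo1 was called by edgeR (-1.63 with a filter) and DESeq2 (-1.70), and by limma with only genes averaging 1 RPM or more (-1.22), under the replicate block (-1.36) and without NC2 (-1.69), but was at -0.80 without NC3.

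Regulators of family proteins split 10 higher and 7 lower, with 0 of 17 called by limma and 2 with the groups apart. Becn1, an autophagy protein with a BH3 domain that BCL2 and BCL-XL bind, was at 84.4, 100.6 and 68.1 RPM in NC and at 119.2, 130.3, 104.7 and 107.8 RPM in HC. All HC libraries were above all NC libraries, with a log2 fold change of 0.46 (SE 0.15, limma p = 0.0252, adjusted p = 0.915, exact permutation p = 0.0286), under the 1.5-fold limit, and 0.60 without NC2, where it was called. Becn1 was at 0.32 after median-of-ratios scaling, 0.32 without NC3, 0.36 in edgeR with a filter and 0.32 in DESeq2. Its unadjusted p was above the limit for a call in each of these fits. It was under that limit after quantile normalization (0.44) and under the replicate block (0.49). Mapk8, the kinase JNK1, was at 30.4, 19.8 and 18.6 RPM in NC and at 16.8, 13.97, 17.9 and 15.03 RPM in HC, lower in every HC library (log2 fold change -0.47, SE 0.19, limma p = 0.0525, exact permutation p = 0.0286). Mapk8 was called by DESeq2 (-0.64), and by limma after median-of-ratios scaling (-0.61), after quantile normalization (-0.66) and without NC3 (-0.60), but was at -0.26 without NC1. Usp9x, a deubiquitinase that stabilizes MCL1, was at 278 to 324 RPM in NC and 247 to 287 RPM in HC (log2 fold change -0.18, limma p = 0.0594, exact permutation p = 0.143). Its log2 fold change was -0.33 after median-of-ratios scaling, -0.30 in edgeR with a filter and -0.34 in DESeq2.

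Among the other BCL2 family members, 8 of 16 had a row, 3 higher and 5 lower in HC, with 0 called by limma. Bok, an effector-like member, was at 23.02, 2.48 and 0.207 RPM in NC and at 4.92, 6.53, 20.3 and 16.0 RPM in HC. Bik, a BH3-only member, was at 7.67, 0.770 and 0.207 RPM in NC and at 2.95, 2.31, 6.31 and 7.92 RPM in HC. Both were highest in NC1 among the NC libraries and higher in HC3 and HC4 than in HC1 and HC2, as were the summed markers of satellite, endothelial and fibro-adipogenic cells, myofibers and neutrophils (exact permutation p = 0.371 for Bok and 0.314 for Bik between NC and HC). The part of these cells was not tested. The log2 fold changes were 1.28 for Bok and 1.03 for Bik, both were called without NC1 (2.46 and 1.89), and without NC3 they were 0.30 and 0.46. They were 1.96 and 1.79 with a pseudocount of 0.1 RPM and 0.61 and 0.41 with 5 RPM. Bok was at 0.66 in edgeR with a filter and 0.64 in DESeq2, and Bik at 0.92 and 0.89. Bcl2l14 went the other way, at 2.63, 0.299 and 0.413 RPM in NC and at 0.0860, 0.502, 0.687 and 0.135 RPM in HC, and every library but NC1 held 11 or fewer reads. NC1 alone was above the HC range, and the log2 fold change was -0.50 (exact permutation p = 0.314), -0.027 without NC1, -0.77 without NC2, -1.55 in edgeR with a filter and -1.60 in DESeq2. Of 9 mitochondrial membrane partners 6 were higher and 3 lower in HC with 0 called by limma, among them the fission factor Dnm1l (-0.20, exact permutation p = 0.114), the fusion factor Mfn1 (0.44, exact permutation p = 0.229) and Bcap31 of the endoplasmic reticulum (0.63, exact permutation p = 0.143). Without NC3 Mfn1 was at 0.076 and Bcap31 at 0.088, while Mfn1 was at 0.69 without NC1 and Bcap31 at 1.03 without NC2. Dnm1l was at -0.34 after median-of-ratios scaling, -0.32 in edgeR with a filter and -0.36 in DESeq2.

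The genes with profiles most like the 3 members with the smallest p were sought among 8229 genes averaging 10 RPM or more, by Pearson's r of log2(RPM + 1) over the 7 libraries, which share their NC outliers. For Bid they were Pygb (0.994), Arhgap25 (0.994) and Rps27l (0.989), with 206 genes at 0.95 or more. For Bad they were Gga3 (0.998), Tspo (0.997) and Cfp (0.996), with 375 such genes. For Bcl2 they were Usp2 (0.994), Mff (0.988) and Tbp (0.986), with 45 such genes.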

How the data were processed

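RNA of sorted Pax7-GFP cells was read with an Ion AmpliSeq mouse transcriptome panel on an Ion S5 instrument, and the authors deposited 1 table of RPM, reads scaled so that each library has the same total over the panel. The Transcriptome Analysis Console is named in the submitters' processing notes, while the sources used here do not name the aligner, its settings or the build. Each value was a whole multiple of the worth of 1 read, so whole reads were recovered for 100% of values within 0.05 reads (3 of 3 simulated libraries right). The 21 library pairs all differed beyond counting noise.

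Groups came from the labels. The main test, without a filter, was limma 3.58.1 (R 4.3.3) of log2(RPM + 1) for all 23930 genes, with Benjamini-Hochberg adjustment over all genes, and scripts were tested on simulated data. Calls used the study's thresholds, an unadjusted p under 0.05 and a fold above 1.5. Fold changes on this scale understate those of low genes. The exact permutation test, two-sided, was enumerated in full (35 assignments), and its smallest p is 0.0286. P-values measure the spread between libraries, which may be technical. The alternatives were a pseudocount of 0.1 or 5 RPM, a mean of at least 1 RPM, median-of-ratios scaling, quantile normalization, the replicate number as a block, leaving out each library, count models on the recovered reads, namely DESeq2 1.42.0 and the quasi-likelihood test of edgeR 4.0.16 (filtered and not filtered).

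The members and lists were chosen with earlier results of these data known. All 10 members are named, and 18 related genes, the 3 with the smallest p of each list. Likeness was searched for the 3 members with the smallest p. The motifs and the ratios were described without a test. Promoters are from RefSeq (GRCm38.p6).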

Additional observations from a re-analysis of the deposited data

Results flagged for a closer look

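Bak1 in HC4, at 63.4 RPM, stood apart from the other 3 HC libraries, which lay between 77.2 and 79.5 RPM. On log2(RPM + 1), its gap to the nearest of them was 0.870 of the HC range, above Dixon's 95% critical value for 4 samples. The HC values of 28 genes (10 members and 18 related genes) were tested in this way, and chance flags about 1 in 20 groups. Without HC4 the log2 fold change of Bak1 was -0.14, against -0.21 with it, and was not called in either fit. The NC groups, with 3 libraries each, were not tested.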

How the results depend on the processing

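Over the 10 members and their alternatives 158 values were recomputed, of which 143 kept direction and side of the threshold, 14 turned their sign and 1 became a call. With each library left out in turn, the log2 fold change ranged from -0.028 to 0.68 for Bcl2l1, from -0.68 to 0.28 for Mcl1, from -0.38 to 0.16 for Bcl2l11, from -0.31 to 0.026 for Bax, from -0.48 to 0.023 for Bak1, from -0.10 to 1.29 for Bbc3 and from -0.29 to 0.22 for Pmaip1, and that of Bcl2, Bad and Bid kept its sign. Bcl2l1 turned without NC1, Mcl1 without NC2, Bax, Bak1 and Bbc3 without NC3, Bcl2l11 without NC1 (0.0034), NC2 or HC4 (0.0090), and Pmaip1 without NC2, HC3 (0.073) or HC4 (0.012). Under the replicate block Bcl2l11 turned to 0.0090 and Pmaip1 to 0.012, and after quantile normalization Pmaip1 turned to 0.0041. Median-of-ratios scaling gave 0.15 for Bcl2l1, -0.41 for Mcl1, -0.31 for Bax, -0.35 for Bak1 and -0.21 for Bcl2l11, quantile normalization -0.14 for Mcl1 and -0.18 for Bcl2l11, the replicate block -0.14 for Bak1, and a pseudocount of 5 RPM 0.30 for Bbc3 and -0.020 for Pmaip1. Of 285 values of the 18 related genes, 242 kept direction and side, 27 became calls, 16 lost one and 0 turned.

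The count of members called was 0 to 1 when each library was left out in turn (1 without NC2, Bcl2l1) and 0 in all other alternatives. Members with the groups apart ranged from 0 to 4, with 1 without NC1 (Bak1, against 29.0% of genes at 1 RPM or more), 4 without NC2 (Bcl2, Bcl2l1, Bad and Bid, against 20.7%) and 1 without NC3 (Bcl2l11, against 16.1%). All genes called ranged from 376 to 1990 when each library was left out, and were 802 in edgeR with a filter, 1049 in edgeR without a filter and 1304 in DESeq2. Related genes called ranged from 0 to 12 when each library was left out. They were 4 after median-of-ratios scaling (5.41%, against 2.55% of all genes) and 1 under the replicate block (1.35% against 2.499%). In edgeR they were 5 with a filter (7.04% against 6.03%) and 4 without a filter (5.41% against 4.88%). In DESeq2 they were 7 (9.46% against 6.25%). The cause of these differences was not tested.

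Correlations of same-numbered deviations were -0.35, 0.50 and -0.04. With so few libraries, they cannot show whether the replicate numbers of the labels pair the libraries. HC4 has no partner and so adds nothing to a difference under the block, which called 0 members and 598 of all genes. With 3 NC libraries of large spread, a change of 1.5-fold in at least 1 direction lay inside the 95% interval of all 10 members, and Bbc3 in NC3 and Pmaip1 throughout rested on few reads.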

Other observations

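Within HC, the order of the 4 libraries split them into the same pairs in each member, in some by a narrow margin. Bcl2l11 was at 52.0 RPM in HC1 and 51.7 RPM in HC3, and Bak1 at 77.9 RPM in HC2 and 77.2 RPM in HC3. Pmaip1 rested on 19, 9, 0 and 2 reads in HC1 to HC4. HC1 and HC2 were both above HC3 and HC4 for 8 of 10 members, and both below them for Bcl2 and Bax. Either order was seen in 68.2% of the genes averaging 1 RPM or more, but the general direction was the opposite, with HC1 and HC2 both above in 23.6% and both below in 44.5%. The pairs are not groups of the study, and no test was made of them. The satellite cell marker sum was 807 and 779 RPM in HC1 and HC2 and 1552 and 1319 RPM in HC3 and HC4, and the endothelial sum was 60.9 and 47.3 RPM against 509 and 398 RPM. The sums of fibro-adipogenic, myofiber and neutrophil markers were likewise lower in HC1 and HC2. The macrophage sum ran as most members did, at 24518 and 21072 RPM in HC1 and HC2 and 19665 and 20095 RPM in HC3 and HC4. Of its markers, Adgre1 was at 392 and 429 RPM against 151 and 184 RPM, and Cd68 and Cd14 were also higher in HC1 and HC2. Lyz2 (16728 and 13410 RPM against 14451 and 14393 RPM) and Itgam (1391 and 1509 RPM against 1398 and 1461 RPM) did not separate the pairs. The part of any of these cells was not tested.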
